A study of Drosophila melanogaster with 27 samples.

Results

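The Dpr, DIP, Beat and Side families are cell-surface recognition proteins of the fly nervous system, and 54 of the 17807 genes in the deposited count table belong to them. Members were taken by FlyBase symbol alone: 21 dpr genes, 11 DIP genes with Greek-letter names, 14 beat genes, and 8 side genes. DIP1 and DIP2, which have other kinds of name, were left out. The libraries came from pupal heads of Drosophila melanogaster, although the labels also give the tissue as whole brain. The mutant carries the allele Ythdf#0/#0 (stock CG6422) and was compared with the w1118 wild type; the labels do not say what the lesion is. RNA was sequenced from anti-Fmr1 immunoprecipitates, from control precipitates with mouse IgG and from the input lysate, with 4 libraries of each kind in the mutant and 5 in wild type. For each genotype 200 heads are stated to have been pooled, and the Fmr1 and IgG precipitates took equal portions of the lysate left after the input was removed.

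Dpr proteins and DIPs (Dpr-interacting proteins) are small receptors with immunoglobulin domains. Each Dpr binds particular DIPs, and neurons that express different combinations use them to choose synaptic partners in the optic lobe, the mushroom body and at the neuromuscular junction. Beat (beaten path) and Side (sidestep) proteins form another such network, first known from motor axons, in which Beat-Ia on the growth cone recognises Side on the substrate. Fmr1, the fly homolog of the fragile X protein, binds mRNAs and controls their translation in neurons. Ythdf recognises mRNAs that carry the m6A modification. The study asks which mRNAs Fmr1 binds with and without Ythdf. For the recognition genes the libraries give the enrichment of each mRNA over IgG and over input in either genotype. Enrichment by itself is not a test of direct binding.

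Counts assigned to genes ranged from 196933 to 5879253 in the 9 IgG libraries and from 5623123 to 54195136 in the other 18. Levels of single members in IgG libraries can therefore rest on few counts. In mutant IgG libraries 1, 2, 3 and 7, DIP-beta had 8, 13, 34 and 105 counts and dpr3 had 8, 26, 37 and 93. Over the 52 members tested, the median SE of a log2 value was 0.25 for Fmr1 over IgG and 0.22 for Fmr1 over input in the mutant, and 0.21 and 0.19 in wild type. Ythdf itself stood at 33.2 ± 3.26 CPM (counts relative to the TMM-scaled library total) in mutant inputs and 61.8 ± 5.18 CPM in wild-type inputs (SD, n = 4 and 5), which is lower in the mutant but not absent. Fmr1 mRNA stood at 70.2 ± 5.46 CPM in mutant inputs and 71.0 ± 10.9 CPM in wild-type inputs. Wild-type IgG library 7 stood apart from the rest. The summed level of all members was 6793 CPM there, against 3179 to 3476 CPM in the other 4 wild-type IgG libraries. Its level was above the mean of those 4 for 50 of the 52 members tested, with a median ratio of 1.88, from 0.994 for DIP-epsilon to 6.22 for DIP-lambda. After adding 1 CPM, 50% of all 11469 genes tested were above 1 in the same ratio. Neuron markers summed to 11480 CPM in library 7, against 5958 to 7716 CPM in the other 4, and a list of 47 other immunoglobulin superfamily genes to 10060 CPM, against 5637 to 5865 CPM. Glia markers summed to 1583 CPM, against 2813 to 3284 CPM. The part of these in the members' values was not tested. The library had 94.2 reads assigned to no gene feature per 100 counts in genes, against 22.5 to 61.1 in the other wild-type IgG libraries. Where in the genome such reads lay is not given. Results that rest on library 7 are given with and without it.

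**Figure D1:**
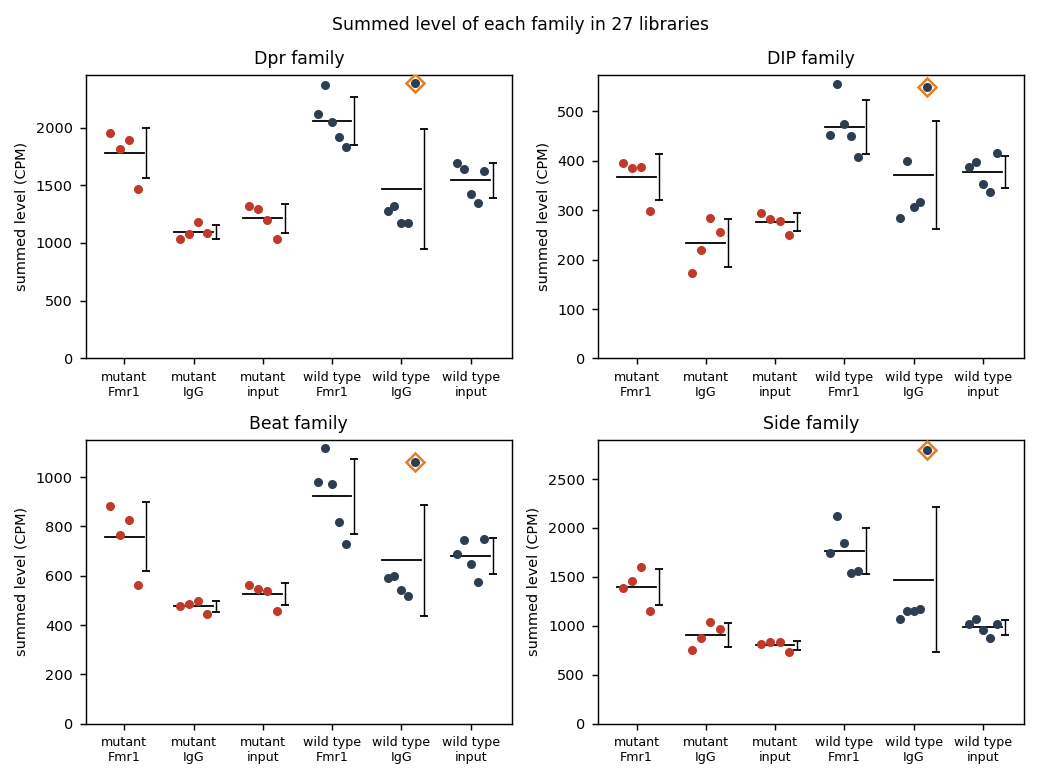
Summed level of the Dpr, DIP, Beat and Side families in each library, as TMM-scaled CPM on linear axes that start at 0. Points are libraries (red, mutant; dark, wild type), the horizontal line is the group mean and the bar is ±1 SD (n = 4 in mutant groups, 5 in wild-type groups). The diamond marks wild-type IgG library 7, in which the Side sum of 2797 CPM lies far above the 1071 to 1176 CPM of the other 4 wild-type IgG libraries.

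All but 2 members were detected well enough to test. DIP-iota had 35 counts over all 27 libraries, and beat-IIIa had 0. All 4457 exonic bases of beat-IIIa are shared on the same strand with the annotated gene CG34106, which also had 0 counts. Among the 52 members tested, the level per length spanned more than an order of magnitude in the inputs. The 3 leading genes were Dpr genes. dpr12, known as the partner of DIP-delta in mushroom body axon zones, had 42.0 CPM per kb of exons in mutant inputs and 52.1 in wild-type inputs. dpr7 had 41.9 CPM per kb in mutant inputs and 51.1 in wild-type inputs, and dpr21 had 44.5 in mutant inputs and 43.6 in wild-type inputs. dpr21 was thus the highest in the mutant and dpr12 in wild type. Among the DIPs, DIP-epsilon led in both genotypes, with 13.8 CPM per kb in mutant inputs and 29.9 in wild-type inputs. The leading Beat was beat-IIa in mutant inputs (19.9 CPM per kb) and beat-VI in wild-type inputs (27.1 CPM per kb). The leading Side was side-VIII, with 34.1 CPM per kb in mutant inputs and 36.8 in wild-type inputs. The lowest level per length of any member tested was that of DIP-alpha, a receptor for Dpr6 and Dpr10, at 3.23 CPM per kb in mutant inputs and 3.48 in wild-type inputs.

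**Figure D2:**
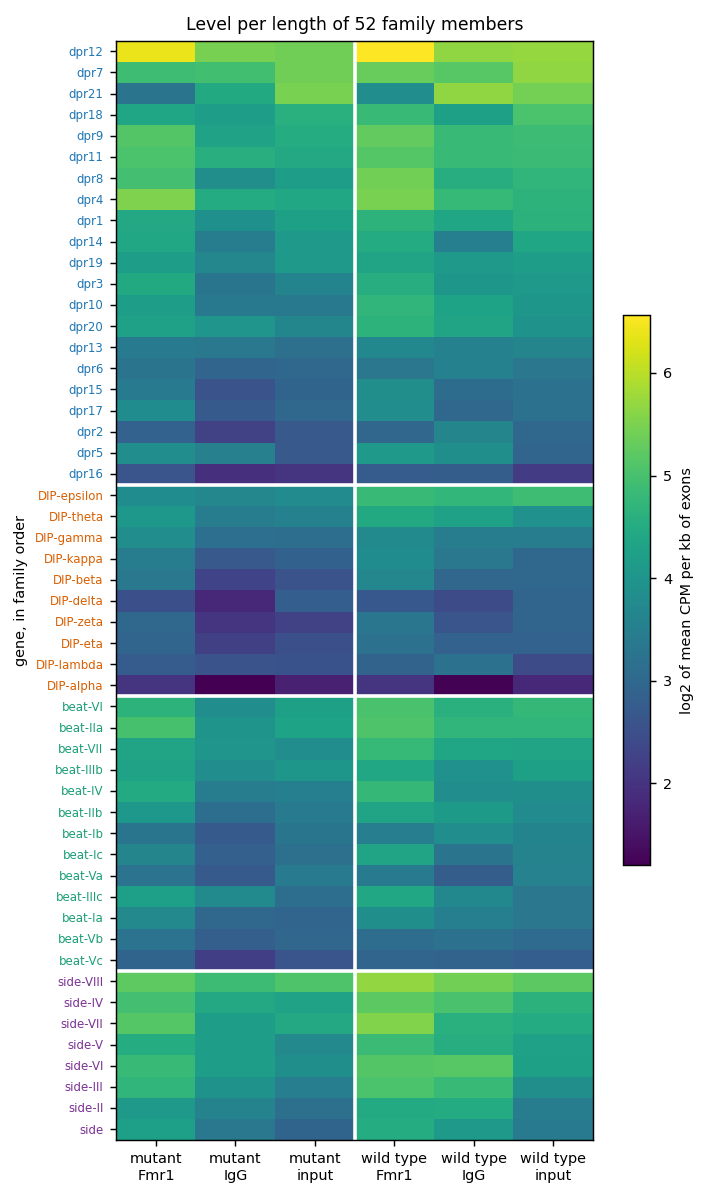
Mean level of the 52 members tested in the 6 groups, as log2 of TMM-scaled CPM per kb of exons (color scale), with genes in rows by family and, within a family, by level in wild-type inputs. dpr12 has the brightest row, and dpr21 is brighter in inputs, at 44.5 CPM per kb in the mutant and 43.6 in wild type, than in Fmr1 precipitates, at 9.66 and 14.2.

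In the Ythdf mutant, 20 of the 52 members were higher in Fmr1 than in IgG precipitates and none was lower, by edgeR's quasi-likelihood test at a Benjamini-Hochberg adjusted p under 0.05. Over all genes tested 20.4% were called, 10.8% higher and 9.61% lower. The median log2 difference over the members was 0.61, against -0.0008 over all genes, and 51 of 52 members had a positive value. In bulk heads, fewer cells of a type and less RNA per cell cannot be told apart, and this holds for every level given here. By family, 9 of 21 Dpr, 3 of 10 DIP, 5 of 13 Beat and 3 of 8 Side genes were called higher. The list of neuron markers had 7 of 10 genes higher and a median of 0.84, and the list of fat body markers had 8 of 8 lower and a median of -4.47. The part of these cell types in the members' values was not tested. With DESeq2's size factors in place of TMM the median of all genes shifted by -0.15, 650 genes were called higher and 1338 lower, against 1239 and 1102 with TMM, and 12 members were higher and 0 lower.

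The largest value among the Dpr genes was that of dpr3, which stood at 63.2, 78.8, 87.4 and 49.7 CPM in mutant Fmr1 precipitates and 26.1, 42.0, 28.7 and 26.6 CPM in mutant IgG precipitates. The 2 kinds of library did not overlap, and the log2 difference was 1.20 ± 0.25 (SE, n = 4 each, edgeR adjusted p = 0.00115). dpr17 stood at 57.8, 66.5, 77.1 and 49.8 CPM in mutant Fmr1 and 29.4, 38.7, 25.6 and 24.3 CPM in mutant IgG libraries (log2 1.14 ± 0.25, edgeR adjusted p = 0.00164). Every Fmr1 library again lay above every IgG library. dpr8 had 192, 155, 167 and 105 CPM in mutant Fmr1 and 81.6, 79.0, 64.3 and 62.1 CPM in mutant IgG libraries (log2 1.14 ± 0.24, edgeR adjusted p = 0.00128). The most abundant member, dpr12, had 412, 393, 442 and 340.1 CPM in mutant Fmr1 and 196, 176, 244 and 216 CPM in mutant IgG libraries (log2 0.92 ± 0.18, edgeR adjusted p = 0.000655). For both dpr8 and dpr12 the libraries separated without overlap. The other called Dpr genes were dpr4 (log2 1.01), dpr14 (0.99), dpr15 (0.83), dpr9 (0.78) and dpr10 (0.78). The call of dpr15 was lost without IgG library 3 or 7, and that of dpr10 without Fmr1 library 2 or 3 or IgG library 1, 2 or 7. Of the exonic bases of dpr4, 15.7% lie opposite an antisense RNA, so its reads are less certain.

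Among the DIP receptors, DIP-beta was called with 57.5, 57.5, 59.1 and 41.5 CPM in mutant Fmr1 and 26.1, 21.0, 26.3 and 30.04 CPM in mutant IgG libraries (log2 1.02 ± 0.23, edgeR adjusted p = 0.0025). No Fmr1 library of DIP-beta reached down to an IgG library. DIP-zeta (log2 0.93) and DIP-alpha (0.77) were also called, DIP-alpha not without Fmr1 library 2 or IgG library 3. Among the Beat genes, beat-IIa, a binding partner of Side-IV, had 103, 97.7, 137 and 67.7 CPM in mutant Fmr1 and 55.5, 42.0, 55.0 and 48.6 CPM in mutant IgG libraries (log2 1.02 ± 0.22, edgeR adjusted p = 0.00154). beat-IV had 72.9, 80.0, 90.9 and 56.0 CPM in mutant Fmr1 and 35.9, 38.7, 37.2 and 36.0 CPM in mutant IgG libraries (log2 1.02 ± 0.24, edgeR adjusted p = 0.00322). Both Beat genes separated without overlap. beat-VI (log2 0.82), beat-IIb (0.82) and beat-Ia (0.73), the anti-adhesive protein of motor axons, completed the called Beat genes; beat-VI lost its call without IgG library 7 and beat-Ia without IgG library 3. The called Side genes were side-VII (log2 0.90), side (0.87) and side-III (0.75). The calls of side and side-III were lost without Fmr1 library 2 or 3 or IgG library 1, 2 or 7, and that of side-VII without Fmr1 library 1 or IgG library 1, 2 or 3. Of the 20 calls in the mutant, 12 held without any 1 of the 8 libraries, and 14 were of members whose Fmr1 and IgG libraries did not overlap. Of all 2341 genes called, 60.2% did not overlap, and the share that held without any 1 library was not computed. Counting members called or not, 22 of 52 did not overlap, all higher, where 9.71% of all genes lay higher without overlap and 6.41% lower.

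In wild type, 12 members were higher in Fmr1 than in IgG precipitates and 2 were lower, where 33.4% of all genes were called, 16.4% higher and 17.0% lower. The median log2 difference over the members was 0.30, against -0.02 over all genes, and 42 of 52 were positive. Of the neuron markers 7 of 10 were higher, with a median of 0.88, and of the fat body markers 8 of 8 were lower, with a median of -3.89; their part in the members' values was not tested. With DESeq2's size factors the median of all genes shifted by -0.22, 982 genes were called higher and 2563 lower, against 1881 and 1954 with TMM, and 6 members were higher and 3 lower. dpr12 had 466, 506, 426, 402 and 419 CPM in wild-type Fmr1 and 173, 223, 202, 239.5 and 368 CPM in wild-type IgG libraries (log2 0.85 ± 0.16, n = 5 each, edgeR adjusted p = 0.000169). dpr14 had 90.1, 105, 89.2, 76.1 and 81.7 CPM in wild-type Fmr1 and 43.2, 42.5, 47.7, 20.6 and 70.9 CPM in wild-type IgG libraries (log2 0.90 ± 0.21, edgeR adjusted p = 0.00139). dpr12 and dpr14 were the 2 of 52 members whose wild-type libraries did not overlap, where 8.07% of all genes lay higher without overlap and 3.85% lower. These counts include IgG library 7 and were not computed without it, so they cannot be compared free of that library. For dpr8 the lowest wild-type Fmr1 value was 152 CPM. Among its wild-type IgG values only that of library 7, 196 CPM, lay above this, and the next was 107.5 CPM. beat-IV had 99.9, 116, 98.8, 67.7 and 75.5 CPM in wild-type Fmr1 and 48.0, 40.0, 30.9, 36.8 and 83.1 CPM in wild-type IgG libraries (log2 0.87 ± 0.21, edgeR adjusted p = 0.00176). side-VII had 304, 161, 155, 214 and 195 CPM in wild-type Fmr1 and 91.3, 67.5, 69.0, 109 and 199 CPM in wild-type IgG libraries (log2 0.88 ± 0.25, edgeR adjusted p = 0.00778). In both genes only the last IgG value, that of library 7, reached into the Fmr1 range. The other members called higher in wild type were dpr8 (log2 0.84), dpr17 (0.80), dpr15 (0.69), dpr4 (0.65), DIP-alpha (0.67), DIP-beta (0.63), DIP-zeta (0.62) and beat-Ic (0.89). Of these, dpr15 lost its call without IgG library 3, DIP-beta without Fmr1 library 2 or IgG library 3, DIP-zeta without Fmr1 library 1 or 2 or IgG library 1, 3 or 5, and beat-Ic without Fmr1 library 1 or IgG library 1, 2, 3 or 5.

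Both members called lower in wild type rested on IgG library 7. dpr21 had 18.2, 7.09, 4.66, 27.4 and 13.2 CPM in wild-type Fmr1 and 19.2, 17.5, 25.8, 47.7 and 144 CPM in wild-type IgG libraries, a log2 difference of -2.08 ± 0.52 (edgeR adjusted p = 0.00331). Without library 7 the difference was -1.08 (adjusted p = 0.119). dpr2 had 27.4, 24.9, 22.6, 23.5 and 21.3 CPM in wild-type Fmr1 and 28.8, 45.0, 16.8, 34.7 and 65.4 CPM in wild-type IgG libraries (log2 -0.74 ± 0.21, edgeR adjusted p = 0.00792). For dpr2 it was -0.30 without the library (adjusted p = 0.633).

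With library 7 left out, 34 members were called higher in wild type and none lower, where 16.7% of all genes were called higher and 13.5% lower. The median over the members was then 0.58, and 49 of 52 were positive. By family the calls without it were 12 Dpr, 5 DIP, 9 Beat and all 8 Side genes, against 6, 3, 2 and 1 with it. side, the axon attractant after which that family is named, had 228, 367, 316, 212 and 213 CPM in wild-type Fmr1 and 158, 145, 130.2, 152 and 428 CPM in wild-type IgG libraries. Its log2 difference was 0.36 ± 0.25 with library 7 (edgeR adjusted p = 0.285) and 0.88 without it (adjusted p = 0.000684). side-VI had 247, 299, 243, 236 and 249.6 CPM in wild-type Fmr1 and 168, 195, 198, 198 and 561 CPM in wild-type IgG libraries, and its log2 difference was -0.09 with library 7 and 0.41 without it (adjusted p = 0.0304). beat-Ic reached 1.65 without the library, the largest value of any member in that fit (adjusted p = 5.29e-05).

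**Figure D3:**
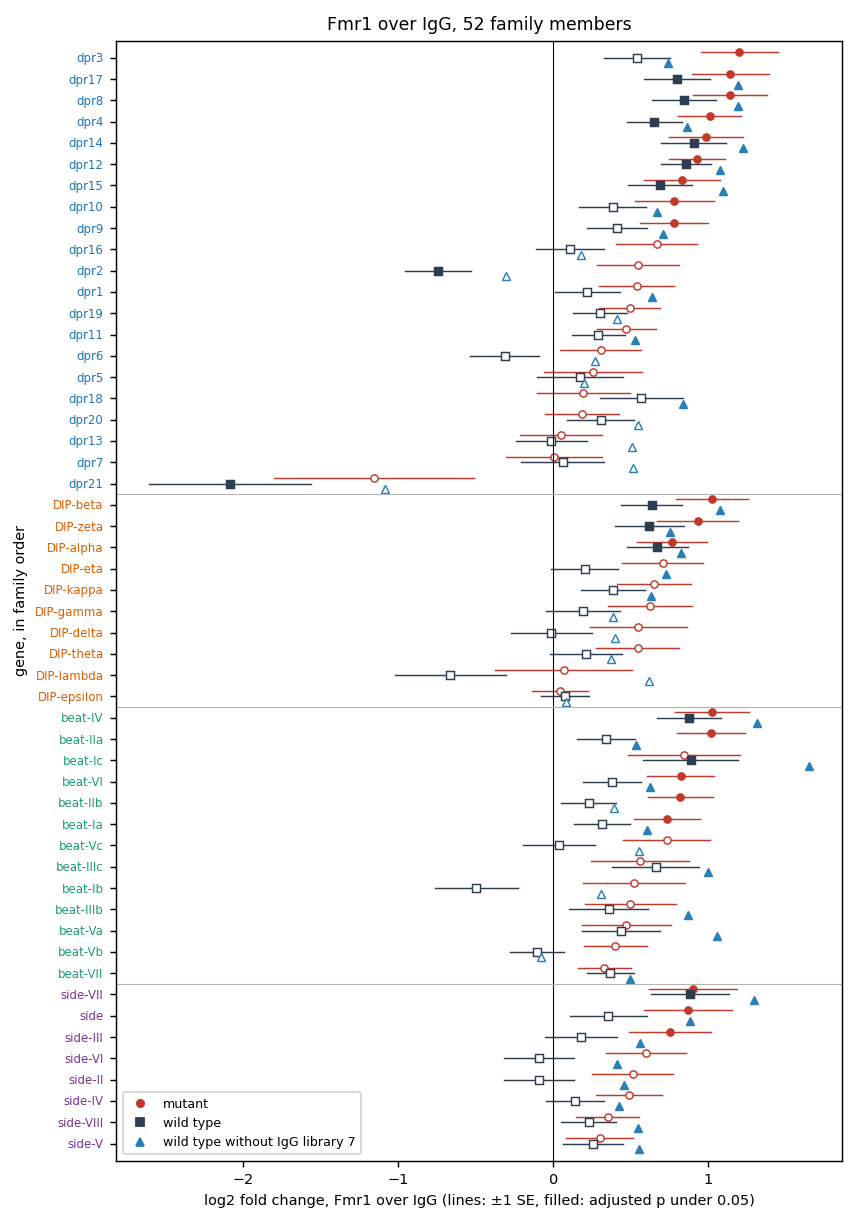
Log2 difference of Fmr1 over IgG for the 52 members tested, by family, in the mutant (red circles), in wild type (dark squares) and in wild type without IgG library 7 (blue triangles, drawn without error). Lines are ±1 SE of the edgeR fit, and filled symbols are called at an adjusted p under 0.05. The 8 Side genes show the shift most evenly, with 1 filled square and 8 filled triangles.

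The 2 genotypes shared 11 of the members called higher over IgG, which is 55% of the 20 in the mutant and 91.7% of the 12 in wild type. Without wild-type IgG library 7 they shared 19, or 95% of the 20 in the mutant and 55.9% of the 34 in wild type. The same shares over all genes called were not computed, so these cannot be read as particular to the members. The difference of the enrichment between mutant and wild type, tested as an interaction, was called for 0 members and for 0.0% of all genes (0 of 11469 by edgeR), and no member was called by DESeq2 or limma voom either. At an unadjusted p under 0.05 there were 4 members and 504 of all genes. The 4 members were dpr2 (mutant minus wild type on the log2 scale 1.29 ± 0.34, unadjusted p = 0.000676, edgeR adjusted p = 0.483), beat-Ib (1.01 ± 0.42), beat-IIa (0.68 ± 0.29) and beat-IIb (0.59 ± 0.28). The median difference over the members was 0.34, with 45 of 52 positive, and it was -0.02, with 25 of 52 positive, without wild-type IgG library 7. The same values for dpr2 and beat-Ib without it were 0.85 and 0.21, and for beat-IIa and beat-IIb 0.48 and 0.42.

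Known binding pairs were read side by side. DIP-alpha was called over IgG in both genotypes (log2 0.77 in the mutant and 0.67 in wild type). Of its partners, which mark its targets in the optic lobe and on muscles, dpr10 was called in the mutant (0.78; wild type 0.38), and dpr6 in neither (0.31 and -0.31 in mutant and wild type). dpr12 was called in both genotypes, whereas its partner DIP-delta had 0.55 ± 0.31 in the mutant and -0.01 ± 0.26 in wild type and passed in neither. dpr11 and DIP-gamma, which match color photoreceptors to their targets, were called in neither genotype, with 0.47 and 0.62 in the mutant and 0.29 and 0.19 in wild type. beat-Ia and side were both called in the mutant, and in wild type they had 0.32 and 0.36, which did not pass. beat-IIa and beat-IIb were called in the mutant, and their partner side-IV was not (0.49, adjusted p = 0.101); in wild type the 3 had 0.34, 0.23 and 0.14. Reads of side-IV are uncertain, because 67.5% of its exonic bases lie opposite 2 annotated antisense RNAs and the strand setting of the counting is not given in the sources used here. beat-Va, beat-Vb and beat-Vc and their partner side-VI had 0.47, 0.40, 0.73 and 0.59 in the mutant and 0.43, -0.10, 0.04 and -0.09 in wild type, with no call among them. The wild-type signs of DIP-gamma, beat-Vc and side-IV turned negative with DESeq2's size factors, and those of dpr6 (0.27), side-VI (0.41) and DIP-delta (0.40) turned positive without IgG library 7, where beat-Vc had 0.56. Without wild-type IgG library 7, beat-Va (1.06, adjusted p = 0.00177), beat-Ia (0.60), beat-IIa (0.53), dpr10 (0.67), dpr11 (0.53), side (0.88), side-IV (0.42) and side-VI (0.41) were called in wild type as well.

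Against input, which does not involve the IgG libraries, 28 members were higher and 1 lower in the mutant Fmr1 precipitates, where 46.5% of all genes were called, 21.7% higher and 24.8% lower. In wild type 26 members were higher and 1 lower, where 48.8% of all genes were called, 23.2% higher and 25.6% lower. The median log2 difference was 0.58 in the mutant and 0.46 in wild type over the members, and -0.10 in the mutant and -0.04 in wild type over all genes. The genotypes shared 22 members called higher, 78.6% of the 28 in the mutant and 84.6% of the 26 in wild type. Here too the shares over all genes called were not computed. Of the neuron markers, 7 of 10 were higher in the mutant, with a median of 0.75, and 6 of 10 in wild type, with a median of 0.54. Of the fat body markers, 2 of 8 were lower in the mutant and 1 of 8 in wild type. The part of these cell types in the members' values was not tested.

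The Side family had 7 of 8 genes higher in the mutant and 8 of 8 in wild type and medians of 0.86 and 0.94. side had 188, 249, 283 and 163 CPM in mutant Fmr1 precipitates and 85.9, 95.4, 93.3 and 84.2 CPM in mutant inputs (log2 1.30 ± 0.27, edgeR adjusted p = 0.000333). In wild type it had 228, 367, 316, 212 and 213 CPM in Fmr1 precipitates and 148, 124, 100.4, 109 and 135 CPM in inputs (log2 1.12 ± 0.24, edgeR adjusted p = 0.000396). Neither genotype's Fmr1 and input libraries overlapped. side-III had 178, 256, 307 and 158 CPM in mutant Fmr1 precipitates and 95.3, 102, 101 and 85.4 CPM in mutant inputs (log2 1.23 ± 0.26, edgeR adjusted p = 0.000341). The wild-type values of side-III were 235, 394, 330.2, 212 and 220.2 CPM in Fmr1 precipitates and 136, 137, 119, 106 and 113 CPM in inputs (log2 1.19 ± 0.23, edgeR adjusted p = 0.000114). Again every Fmr1 library lay above every input. side-II, side-VI, side-V, side-IV and side-VII ranged from 0.66 to 0.94 in the mutant and from 0.56 to 1.05 in wild type, and side-VIII had 0.14 ± 0.20 in the mutant and 0.48 ± 0.18 in wild type, where it was called.

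Most Side mRNAs also stood higher in IgG precipitates than in inputs. The ratio of the mean IgG level to the mean input level was above 1 for 6 of 8 Side genes in the mutant, with a median of 1.29, and for 8 of 8 in wild type, with a median of 1.47. Without wild-type IgG library 7 it was above 1 for 6 of 8 in wild type, with a median of 1.13. The corresponding medians in the mutant were 0.831 for Dpr, 0.88 for DIP and 0.816 for Beat genes, and in wild type without library 7 the ratio was above 1 for 5 of 21 Dpr, 2 of 10 DIP and 4 of 13 Beat genes. The 47 other immunoglobulin superfamily genes summed to 5633 CPM in mutant IgG precipitates and 4834 CPM in mutant inputs. In wild type they summed to 5743 CPM in IgG precipitates without library 7 and 5593 CPM in inputs. Neuron markers had 6175 and 5303 CPM in the mutant, and 6804 and 7502 CPM in wild type, where IgG was lower. The share of all genes above 1 was not computed, so the ratios cannot be read as particular to Side genes. They are a description and were not tested.

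Of the Dpr genes, dpr5 had 19.9, 36.3, 31.3 and 18.2 CPM in mutant Fmr1 precipitates and 12.2, 11.8, 10.1 and 14.4 CPM in mutant inputs (log2 1.13 ± 0.28, edgeR adjusted p = 0.00159), and 1.11 on the log2 scale in wild type. Over IgG the same gene had 0.26 ± 0.32 in the mutant and 0.17 ± 0.28 in wild type and was not called. In wild-type Fmr1 precipitates dpr5 had 19.5, 47.7, 44.1, 23.0 and 23.0 CPM. Fmr1 libraries 2 and 3 were thus the highest for dpr5 in both genotypes. The same libraries were the highest for side and the lowest for side-VII and dpr21 in both genotypes. The cause of this shared pattern was not tested. dpr4 (1.10 in the mutant and 0.81 in wild type) and dpr12 (1.00 and 0.86) were called over both controls in both genotypes. beat-IIIc, another gene with a larger value over input than over IgG in the mutant, had 1.08 ± 0.29 over input in the mutant and 1.07 ± 0.26 in wild type. beat-IV had 0.96 over input in the mutant and 0.89 in wild type, and beat-Ia 0.78 and 0.54. Of the DIPs, DIP-beta (0.77 in the mutant and 0.69 in wild type) and DIP-kappa (0.57 and 0.80) were called in both genotypes, DIP-zeta (0.77) and DIP-gamma (0.69) in the mutant and DIP-theta (0.55) in wild type. The members called in both genotypes that are not yet named were dpr8, dpr10, dpr16, dpr17, dpr20, beat-IIb and beat-VII, from 0.50 to 0.82 in the mutant and from 0.44 to 0.72 in wild type. dpr3 (0.85), dpr9 (0.60), dpr11 (0.61) and beat-IIa (0.67) were called in the mutant, and dpr15 (0.64) and beat-Ic (0.73) in wild type. Of the 29 calls in the mutant 22, and of the 27 in wild type 24, held without any 1 library. The same shares over all genes called were not computed, so these counts cannot be read as particular to the members. In the mutant, dpr9 and beat-IIa lost their calls without Fmr1 library 3, dpr16 and DIP-gamma without Fmr1 library 2 or 3, dpr20 without Fmr1 or input library 1, DIP-kappa without Fmr1 library 1, 2 or 3, and side-VII without Fmr1 library 1. In wild type, DIP-theta lost its call without Fmr1 library 2 or 3 or input library 5, side-VIII without Fmr1 library 2 or input library 5, and beat-Ic without Fmr1 library 1, 2 or 5 or input library 1, 3 or 5.

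The member called lower than input was dpr21 in both genotypes. It had 19.6, 5.57, 3.08 and 10.1 CPM in mutant Fmr1 precipitates and 57.2, 44.0, 39.1 and 36.5 CPM in mutant inputs (log2 -2.21 ± 0.57, edgeR adjusted p = 0.00269). In wild type it had 18.2, 7.09, 4.66, 27.4 and 13.2 CPM in Fmr1 precipitates and 37.4, 38.4, 29.99, 51.6 and 59.1 CPM in inputs (log2 -1.62 ± 0.49, edgeR adjusted p = 0.00912). The Fmr1 and input libraries did not overlap in either genotype. With 993 exonic bases, dpr21 is the shortest of the members tested. Over IgG in the mutant it had -1.16 ± 0.64 (edgeR adjusted p = 0.216), and adjusted p = 0.0436 with the library number as a block. The block also added calls over input in the mutant for dpr7, which was lower (-0.50 without the block, adjusted p = 0.0304 with it), and for dpr15 and DIP-theta, which were higher (0.0457 and 0.0423), and in wild type for dpr9 (0.0384).

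**Figure D4:**
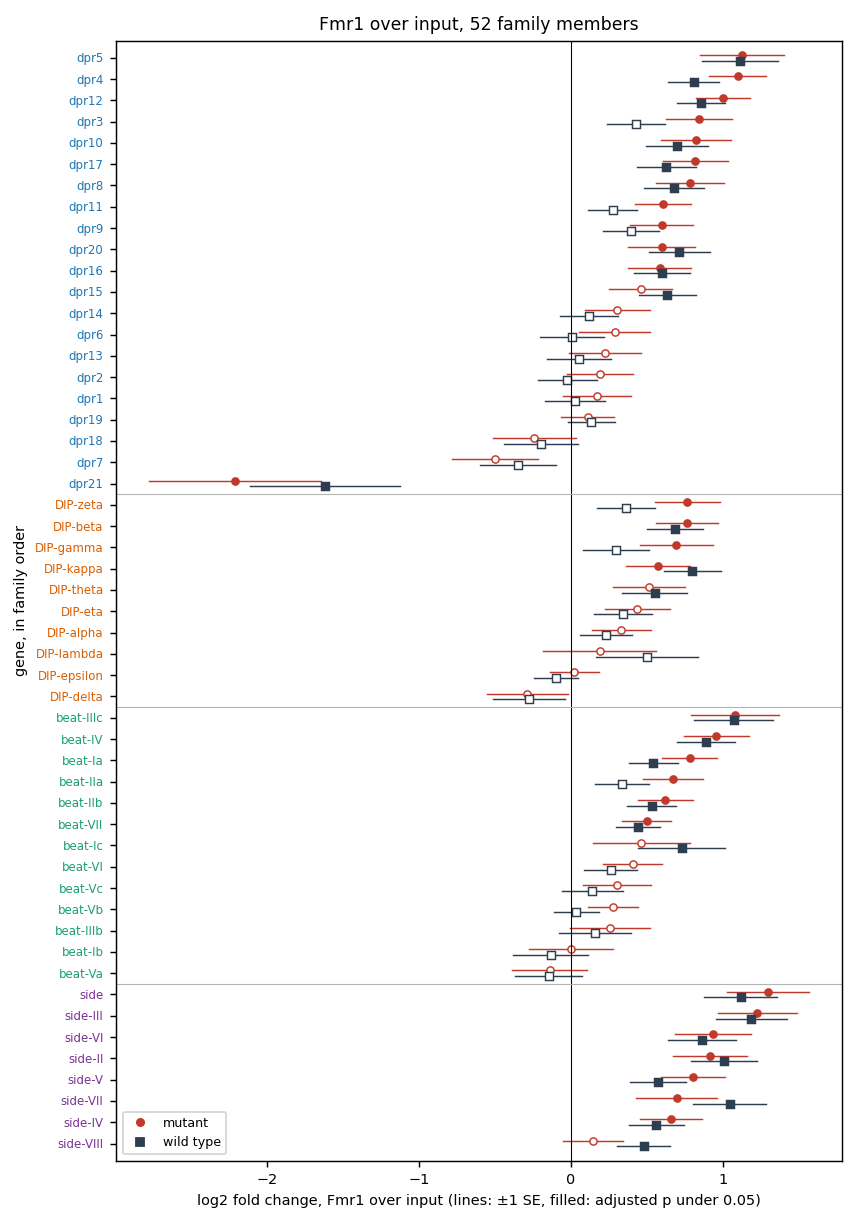
Log2 difference of Fmr1 over input for the 52 members tested, by family, in the mutant (red circles) and in wild type (dark squares), with ±1 SE of the edgeR fit. Filled symbols are called at an adjusted p under 0.05. The Side genes lie to the right of 0 in both genotypes, and dpr21 is the isolated low value, -2.21 in the mutant and -1.62 in wild type.

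The difference of the enrichment over input between mutant and wild type was called for 0 members by edgeR, and for 0.00872% of all genes. No member had an unadjusted p under 0.05, where 197 of all genes did, and DESeq2 and limma voom called no member. The median difference, mutant minus wild type on the log2 scale, was 0.10 over the members and -0.01 over all genes.

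In the inputs, 2 members were lower in the Ythdf mutant than in wild type and none was higher, where 5.68% of all genes were called, 3.33% higher and 2.35% lower. Both were DIP receptors. DIP-epsilon (chromosome arm 2L, bases 6377771 to 6411326 of the minus strand in the BDGP6.54 annotation) had 44.5, 43.0, 42.9 and 43.6 CPM in mutant inputs and 106, 105, 89.9, 85.0 and 83.7 CPM in wild-type inputs. The groups were far apart, and the log2 difference was -1.11 ± 0.16 (edgeR adjusted p = 2e-05), called without any 1 of the 9 inputs. DIP-zeta, on the same arm, had 17.0, 18.0, 15.2 and 17.1 CPM in mutant inputs and 29.1, 23.1, 20.3, 28.1 and 37.3 CPM in wild-type inputs (log2 -0.71 ± 0.21, edgeR adjusted p = 0.0375). The groups did not overlap, but the call was lost without mutant input 1, 2, 3 or 7 or wild-type input 1, 5 or 7.

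DIP-epsilon was lower in mutant IgG precipitates as well, with 32.6, 27.4, 51.9 and 50.6 CPM there and 81.7, 115, 64.5, 79.1 and 84.5 CPM in wild-type IgG precipitates (log2 -0.96 ± 0.18, edgeR adjusted p = 0.00219). Without wild-type IgG library 7 the value was -0.95 (adjusted p = 0.00744). In Fmr1 precipitates it had 48.1, 42.7, 36.0 and 50.0 CPM in the mutant and 88.7, 84.7, 80.6, 92.0 and 94.1 CPM in wild type, again without overlap. Fmr1 over input was 0.02 ± 0.16 in the mutant and -0.10 ± 0.15 in wild type, and Fmr1 over IgG was 0.04 ± 0.18 and 0.07 ± 0.16, none of them called.

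**Figure D5:**
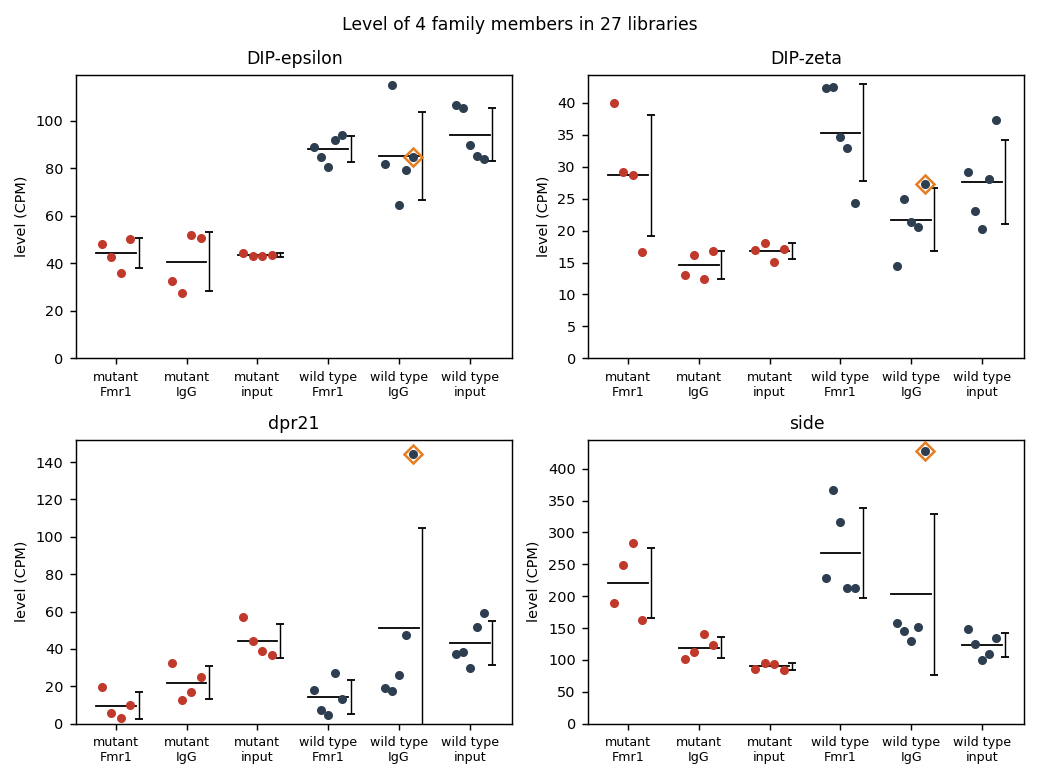
Levels of DIP-epsilon, DIP-zeta, dpr21 and side in each library, as TMM-scaled CPM on linear axes that start at 0. Points are libraries (red, mutant; dark, wild type), the line is the group mean, the bar is ±1 SD (n = 4 in mutant groups, 5 in wild-type groups), and the diamond marks wild-type IgG library 7. DIP-epsilon separates the genotypes in all 3 kinds of library, with the highest mutant value at 51.9 CPM and the lowest wild-type value at 64.5 CPM.

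The other 50 members were not called in the inputs, though 50 of all 52 had a negative log2 difference and the median was -0.34, against 0.04 over all genes. In 20 members the mutant inputs all lay below the wild-type inputs, where 9.98% of all genes did so and 11.2% lay above without overlap. Beside DIP-epsilon and DIP-zeta, the lowest values were those of dpr10 (-0.66 ± 0.22, edgeR adjusted p = 0.072) and dpr8 (-0.56 ± 0.21, adjusted p = 0.129), with side-V at -0.56. The summed level of all members was 2817 ± 231 CPM in mutant inputs and 3589 ± 319 CPM in wild-type inputs (SD, n = 4 and 5), with ranges of 2484 to 2990 CPM in mutant inputs and 3126 to 3849 CPM in wild-type inputs. The 10 neuron markers had negative values in 10 of 10 cases, with a median of -0.49 and none called, and their sum was 5303 ± 376 CPM in mutant inputs and 7502 ± 1090 CPM in wild-type inputs. At an unadjusted edgeR p under 0.05 there were 8 of these 10 markers, 13 of the 52 members and 2164 of all 11469 genes. The members' sum divided by that of the neuron markers was 0.531 ± 0.0149 in mutant inputs and 0.484 ± 0.0642 in wild-type inputs, ranges that overlapped. The part of neuron content in the members' values was not tested. A fit of the 9 inputs alone, with their own estimate of the spread, called 23 members lower in place of 2, and of all genes 9.52% higher and 9.54% lower in place of 3.33% and 2.35%.

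Between the IgG precipitates, 9 members were lower in the mutant and none was higher, where 4.27% of all genes were called, 2.09% higher and 2.18% lower. They were dpr2 (log2 -1.38), beat-Ib (-1.22), side-VI (-0.99), side-II (-0.98), DIP-epsilon (-0.96), dpr10 (-0.94), beat-IIb (-0.86), beat-VI (-0.81) and beat-IIa (-0.76), with edgeR adjusted p from 0.00219 to 0.0443. All 52 members had a negative value, and the median was -0.60, against -0.001 over all genes. Without wild-type IgG library 7 the call of DIP-epsilon was left and those of the other 8 were lost, 40 of 52 members were negative and the median was -0.25. The count was 4 without mutant IgG library 1 or 2, 2 without mutant IgG library 7 and 16 without wild-type IgG library 3. Without mutant IgG library 1, 2 or 7, in that order, 1.55%, 1.4% and 0.846% of all genes were lower. The shares higher were 1.63%, 1.73% and 1.07%. The shares without wild-type IgG library 3 are not given here. A fit of the 9 IgG libraries alone called 0 members, and of all genes 0.636% higher and 0.48% lower. With limma voom 2 members were called, and of all genes 1.23% higher and 1.16% lower. dpr21 had the lowest value, -1.49 ± 0.63, and was not called (adjusted p = 0.188); without wild-type IgG library 7 it had -0.49, and DIP-epsilon was then the lowest. Fat body markers summed to 6842 ± 3552 CPM in mutant IgG precipitates and 2825 ± 1073 CPM in wild-type IgG precipitates, and their part in these values was not tested.

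The members share a gene structure that the choice by symbol did not use. All 54 span more of the genome than the median protein-coding gene in the table, with a median of 36154.5 bases against 2160 bases for 13883 protein-coding genes, and their exons sum to a median of 3515 bases against 1734. Side genes have the most exonic sequence, counted over all transcripts of a gene. Their median was 5634 exonic bases in the 8 tested, against 3283 for 21 Dpr, 3356 for 10 DIP and 3196 for 13 Beat genes. Across all 11409 genes tested that have an annotated length, Spearman's rho of exonic length with Fmr1 over input was 0.691 in the mutant and 0.644 in wild type, and over the 52 members it was 0.372 and 0.382. With Fmr1 over IgG the values were 0.524 in the mutant and 0.508 in wild type over all genes, and 0.289 and 0.314 over the members. Genes of a library share its depth and composition, so these coefficients describe the libraries and carry no test. The ratio of wild-type IgG library 7 to the mean of the other 4 had a rho with genomic span of 0.371 over the 52 members and 0.223 over all genes.

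A list of 47 other immunoglobulin superfamily genes, many of them adhesion or guidance receptors, was described in the same way. In Fmr1 over IgG 11 were higher and 1 lower in the mutant, and 14 were higher and 2 lower in wild type, with medians of 0.23 in the mutant and 0.16 in wild type. In Fmr1 over input 26 were higher and 3 lower in the mutant, and 26 were higher and 4 lower in wild type, with medians of 0.55 and 0.61. kek6, a transmembrane Kekkon protein, had the smallest p over IgG, with a log2 difference of 1.25 ± 0.16 in the mutant and 1.20 ± 0.14 in wild type (edgeR adjusted p = 5.8e-06 and 8.36e-07). Ama, a secreted protein of the superfamily, was lower over IgG by log2 values of -2.59 ± 0.40 in the mutant and -2.31 ± 0.42 in wild type. In the inputs 0 of the 47 were called between mutant and wild type by edgeR, 9 had an unadjusted p under 0.05, and the median was -0.15.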

How the data were processed

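The deposited file holds raw counts of reads per gene for 27 libraries, made by the authors. Per the submitters' processing notes, bcl2fastq 2.20, Trim Galore and STAR were used; the counting program, its strand setting, the use of the UMI read and the genome build are not given in the sources used here. Per the labels' protocols, libraries were strand-specific and depleted of rRNA. Entries that name no gene took 23.79 to 74.68% of a library and were left out. Counts per gene were analysed with edgeR 4.0.16 in R 4.3.3: TMM scaling, a filter (minimum count 10, minimum total 15) that kept 11469 of 17807 genes, and a robust quasi-likelihood fit of all 6 groups, with 8 comparisons and Benjamini-Hochberg adjustment over all genes tested at 0.05. An SE is the log2 value over the root of its F statistic; for genes that vary less than Poisson counts edgeR takes the larger of its p and a Poisson p. Levels are TMM-scaled CPM computed from the deposited counts. Gene names and positions came from the Ensembl BDGP6.54 annotation, which holds 17710 of the gene IDs. The steps were tested on simulated data.

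The members and lists were chosen with earlier results of these data known. Named were all called members, those with the 4 largest changes, known binding pairs, the member of highest level per length in each family, and at most 4 genes of another list. The labels do not say that libraries of a group came from separate animals or lysates, so p-values measure the spread between libraries, which may be technical. Library numbers were taken to pair samples where every same-numbered pair of deviations from the group means correlated above 0.1. This held for Fmr1 with IgG in the mutant (0.181 to 0.318). It also held for Fmr1 with input in the mutant (0.138 to 0.495) and in wild type (0.175 to 0.473). Between genotypes it held for the Fmr1 precipitates (0.311 to 0.639), but not for inputs (0.0214 to 0.354) or IgG precipitates (0.0496 to 0.194). Fmr1 with IgG in wild type did not pass either (-0.0128 to 0.326). Alternatives were DESeq2's size factors, upper-quartile factors, no filter, a minimum count of 30, DESeq2 1.42.0, limma voom 3.58.1, a fit of the groups compared alone, the library number as a block, and leaving out each library.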

Additional observations from a re-analysis of the deposited data

Results flagged for a closer look

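Of 102 groups examined over 17 summed levels and genes, 10 had a highest or lowest library far from the others (Dixon's 95% criterion). The summed levels contain the single genes, and the genes were chosen with earlier results known. The flags are therefore not independent, and no chance rate applies to their number. Wild-type IgG library 7 held 8 of the 10. It was the highest of the 5 wild-type IgG libraries for the summed level of all members (6793 CPM, next 3476), Dpr (2387 CPM, next 1321), Beat (1060 CPM, next 600.3) and Side genes (2797 CPM, next 1176). Among single genes it was the highest for dpr21 (144.5 CPM, next 47.7), side (427.6 CPM, next 158.5), side-VI (560.7 CPM, next 198.5) and beat-Ib (84.9 CPM, next 33.6). The same library had 10060 CPM of the other immunoglobulin superfamily genes, against a mean of 5743 CPM in the other 4. The part of its reads assigned to no gene feature in these values was not tested. The DIP sum was lowest in mutant Fmr1 library 7 (297.6 CPM, next 385.2), and side-VI was highest in wild-type Fmr1 library 2 (299.3 CPM, next 249.6).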

How the results depend on the processing

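Members called in Fmr1 over IgG numbered 20 in the mutant, 12 with DESeq2's size factors, 13 by DESeq2, 13 in a fit of the groups compared alone and 15 to 23 when 1 library was left out. In the first fits, in that order, 10.8%, 5.67%, 6.78% and 5.16% of all genes were higher and 9.61%, 11.7%, 14.0% and 6.09% lower. In wild type the members called numbered 14, 9 with DESeq2's size factors, 9 with upper-quartile factors, 8 by DESeq2, 8 in a fit of the groups compared alone and 11 to 34 when 1 library was left out. There 16.4%, 8.56%, 10.5%, 9.17% and 9.57% of all genes were higher and 17.0%, 22.3%, 20.3%, 24.3% and 13.4% lower. In Fmr1 over input, leaving out 1 library gave 25 to 32 in the mutant and 24 to 29 in wild type, and both differences between genotypes kept 0 calls. In the mutant fits without 1 library, 18.5% to 23.8% of all genes were higher over input and 20.2% to 24.9% lower. Over IgG the mutant shares ran from 6.29% to 12.4% higher and from 6.21% to 11.1% lower. The other ranges over fits without 1 library come without shares of all genes in this section. Between genotypes, the inputs had 2 calls, 23 with the inputs alone, 7 with the replicate block and 1 to 2 when 1 library was left out. All genes called there were 652, against 1092 higher and 1094 lower with the inputs alone and 761 higher and 484 lower with the block. The IgG libraries had 9 calls, 15 by DESeq2, 2 by limma voom, 0 with the IgG libraries alone, 14 with the replicate block and 1 to 16 when 1 library was left out. In the first fits, in that order, 2.09%, 2.5%, 1.23%, 0.636% and 3.3% of all genes were higher and 2.18%, 3.51%, 1.16%, 0.48% and 3.01% lower. Across genotypes the library numbers paired neither the inputs nor the IgG precipitates, whereas the Fmr1 precipitates correlated by number (0.311 to 0.639). For comparisons within a genotype whose numbers were taken to pair samples, the block changed no other call than those given beside the results. In wild-type Fmr1 over IgG, where the numbers did not pass, the block added dpr3, dpr9, dpr18 and beat-IIIc. Members called higher there were then 16 in place of 12. Of all genes, 18.5% were higher and 17.7% lower, in place of 16.4% and 17.0%.

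Among named members, these log2 values changed sign; ranges are over fits without 1 library. In wild type Fmr1 over IgG, DIP-delta was 0.035 without the filter, 0.024 with the groups alone, 0.019 with the replicate block and -0.14 to 0.40 in range. DIP-gamma was -0.037 with DESeq2's size factors and -0.046 by DESeq2, beat-IIb -0.011 by DESeq2, and side-IV -0.086 with DESeq2's size factors, -0.022 with upper-quartile factors and -0.10 by DESeq2. beat-Vc was -0.19 with DESeq2's size factors, -0.12 with upper-quartile factors, -0.059 with the stricter filter, -0.25 by DESeq2 and -0.21 to 0.56 in range. side-VI was 0.034 with the block and -0.20 to 0.41 in range, and dpr6 -0.45 to 0.27. For the difference between genotypes, beat-Va was -0.15 with the block and -0.59 to 0.20 in range, DIP-alpha -0.057 to 0.23, dpr12 -0.15 to 0.16, dpr11 -0.057 to 0.31 and side -0.017 to 0.65. The causes were not tested. Depth was lowest in the IgG libraries, at 196933 to 5879253 counts; its effect on the errors was not tested.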
